A study of Mus musculus with 24 samples.

Results

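Primitive erythroid cells (EryP), the earliest red cells that a mouse embryo makes, were compared between E12.5 and E11.5, embryonic days counted from conception, across all genes measured. The comparison takes the 3 samples titled E12.5 and the 3 titled E11.5, 6 of the 24 samples in the series. Each of the 6 samples was RNA of GFP-positive cells sorted from the blood of 1 embryo, amplified in 1 round and hybridised to 1 Illumina bead array. All 6 embryos carried a human epsilon-globin::H2B-EGFP transgene, in which an embryonic globin promoter drives a fluorescent histone, so both groups consist of cells that this promoter marks, and no embryo without the transgene was used. The E12.5 group (n = 3) and the E11.5 group (n = 3) share genotype, source and protocol and differ in stage. They also differ in slide, since the E12.5 arrays lay on a slide with 3 E8.5 arrays and the E11.5 arrays on a slide with the E10.5 arrays, and stage and slide cannot be told apart from these 6 arrays. Strain and sex are not given in the labels.

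Primitive erythroid cells leave the yolk sac as dividing nucleated cells and mature together in the bloodstream. In this period they fill with hemoglobin, stop dividing, and condense a nucleus that is expelled later. The genes of S phase are known targets of E2F factors, and many genes of mitosis are repressed in resting cells by the DREAM complex, which binds a promoter element called the cell cycle homology region. In maturing red cells of mouse and human, mitochondria, ribosomes and nuclear proteins are removed while the membrane skeleton and the heme pathway persist.

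Genes of DNA replication and mitosis had the highest shares of genes lower at E12.5 among the lists described below, and the promoters of 6 such genes, picked because they hold a match, show the elements these groups are known for. The sequences are RefSeq promoter windows of build GRCm38.p6, from 250 bases before to 50 bases after the start of the gene, read 5′ to 3′ on the strand of the gene. Capitals mark E2F-type sites, searched on both strands as TTTGGCGC, TTTCGCGC, TTTCCCGC, TTCCCGCC or TTGGCGGG, in the genes of helicase subunits Mcm6 and Mcm5 and of the ribonucleotide reductase subunit Rrm1. The matches in Mcm5 overlap each other, as do 2 of the 3 in Mcm6. The windows are chr1:128359656-128359955 on the minus strand, chr8:75109259-75109558 on the plus strand and chr7:102441445-102441744 on the plus strand.
Mcm6: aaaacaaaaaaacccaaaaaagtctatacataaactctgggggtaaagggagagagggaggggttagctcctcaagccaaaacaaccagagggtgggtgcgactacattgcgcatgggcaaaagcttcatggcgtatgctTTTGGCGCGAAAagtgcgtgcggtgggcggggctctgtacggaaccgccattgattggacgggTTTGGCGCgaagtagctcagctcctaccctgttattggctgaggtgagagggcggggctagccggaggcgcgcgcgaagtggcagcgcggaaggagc
Mcm5: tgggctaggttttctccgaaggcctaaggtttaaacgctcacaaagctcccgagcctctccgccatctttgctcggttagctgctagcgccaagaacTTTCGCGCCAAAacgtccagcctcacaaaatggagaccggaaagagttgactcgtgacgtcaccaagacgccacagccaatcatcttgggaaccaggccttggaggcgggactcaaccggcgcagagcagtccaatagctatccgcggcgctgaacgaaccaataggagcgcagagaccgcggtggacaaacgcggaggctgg
Rrm1: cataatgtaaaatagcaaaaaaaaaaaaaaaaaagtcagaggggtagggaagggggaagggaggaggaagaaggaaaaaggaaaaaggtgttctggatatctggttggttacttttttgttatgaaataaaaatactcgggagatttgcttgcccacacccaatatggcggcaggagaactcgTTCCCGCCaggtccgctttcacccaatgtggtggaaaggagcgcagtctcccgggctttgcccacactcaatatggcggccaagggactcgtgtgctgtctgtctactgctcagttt

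Capitals mark letters of the cell cycle homology region, searched on both strands as TTTGAA or TTTAAA, in the genes of the DNA decatenase Top2a, the condensin subunit Smc2 and the kinetochore protein Spc25. The TTTAAA form reads the same on both strands. The windows are chr11:99024140-99024439 on the minus strand, chr4:52438971-52439270 on the plus strand and chr2:69206164-69206463 on the minus strand.
Top2a: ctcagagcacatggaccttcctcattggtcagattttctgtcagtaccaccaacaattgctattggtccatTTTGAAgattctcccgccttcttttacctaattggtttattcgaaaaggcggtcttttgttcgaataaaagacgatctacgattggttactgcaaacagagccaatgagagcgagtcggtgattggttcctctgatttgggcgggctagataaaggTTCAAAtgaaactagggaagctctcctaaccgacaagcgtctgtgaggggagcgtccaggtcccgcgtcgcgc
Smc2: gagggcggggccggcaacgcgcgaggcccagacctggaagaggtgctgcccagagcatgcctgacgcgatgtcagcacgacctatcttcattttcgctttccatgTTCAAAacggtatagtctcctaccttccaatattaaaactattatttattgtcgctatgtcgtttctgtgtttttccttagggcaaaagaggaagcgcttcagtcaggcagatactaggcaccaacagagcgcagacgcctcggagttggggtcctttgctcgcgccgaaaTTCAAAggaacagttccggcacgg
Spc25: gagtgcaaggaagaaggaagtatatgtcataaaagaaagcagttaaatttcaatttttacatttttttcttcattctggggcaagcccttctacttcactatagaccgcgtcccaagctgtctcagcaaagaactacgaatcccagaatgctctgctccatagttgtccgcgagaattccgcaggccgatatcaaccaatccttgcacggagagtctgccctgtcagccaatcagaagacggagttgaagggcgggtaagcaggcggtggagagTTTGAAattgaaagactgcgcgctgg

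An E2F-type match stood in the window of 13 of 27 DNA replication genes that were lower at E12.5 (48.1%) and in 2 of 24 mitosis genes that were lower (8.33%). The same letters stood in 14% of all genes called lower, 5.99% of genes called higher, 9.1% of the 7704 genes tested that have a promoter sequence, and 4.29% of 32851 promoters in the table. The cell cycle homology letters showed the opposite split, with 19 of 24 mitosis genes (79.2%) and 9 of 27 replication genes (33.3%), beside 23.4% of the genes tested and 27.6% of all promoters. A CCAAT box stood in 70.8% of the mitosis genes, 59.3% of the replication genes, 42.7% of the genes tested and 37.4% of all promoters. The erythroid GATA letters AGATAA were found in 10.6% of genes called higher, 6.84% of genes called lower, 8.59% of genes tested and 11.2% of all promoters. These matches describe letters in a window and were not tested.

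**Figure D1:**
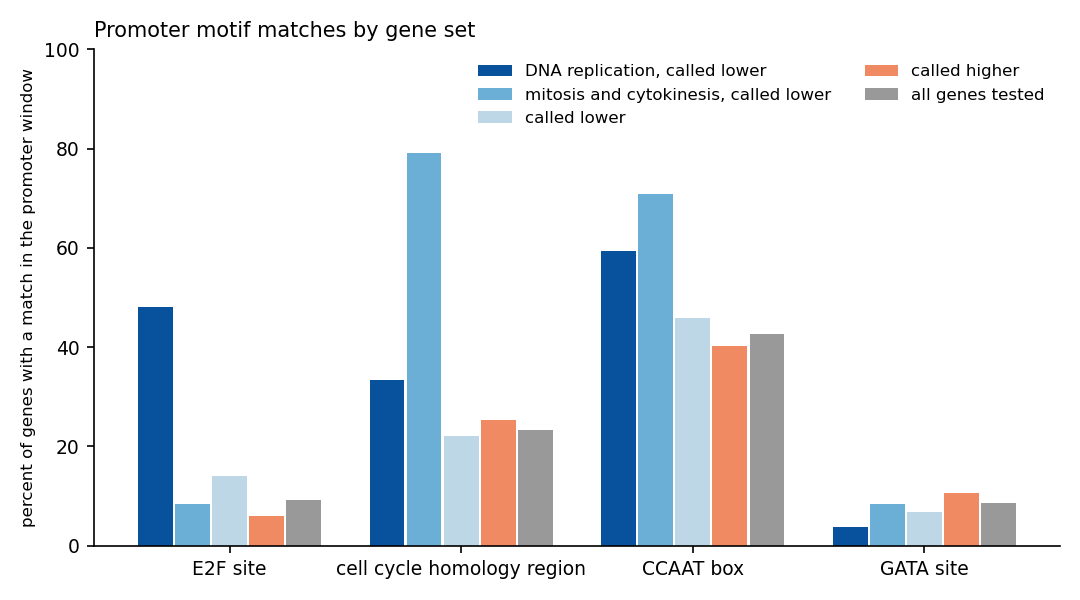
Percent of genes (vertical axis) whose promoter window holds an E2F, cell cycle homology, CCAAT or GATA motif (horizontal axis), for DNA replication and mitosis genes called lower at E12.5, all genes called lower, all genes called higher and all genes tested. The NRF1 and E-box letters are not drawn. The E2F bar is highest for replication genes (48.1%) and the cell cycle homology bar for mitosis genes (79.2%).

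Fewer transcripts were measurable at E12.5 than at E11.5. A probe counts as detected where its deposited detection p is under 0.05, and 10570, 9488 and 8542 of 45719 probes were detected on the E12.5 arrays, against 14050, 13394 and 12355 on the E11.5 arrays. The groups do not overlap, and the means were 9533 ± 1015 at E12.5 and 13266 ± 855 at E11.5 (SD, n = 3 each), with a two-sided exact permutation p of 0.1, the smallest that 3 against 3 arrays allow. At a detection p under 0.01 the E12.5 arrays had 6824, 5205 and 5737 detected probes, against 11341, 11445 and 10681 at E11.5. The 3 E8.5 arrays on the same slide as E12.5 had 12541 to 12823 probes at 0.05 but 8226 to 9053 at 0.01, against 14176 to 15387 and 12273 to 12486 for the 3 E8.5 arrays of another slide, and the part of the slide in the gap between E12.5 and E11.5 was not tested. The number of arrays limits the precision of every value below. Of 5836 genes detected on all 3 E11.5 arrays, 827 were detected on no E12.5 array (14.2%), while 104 of the 4746 detected on all 3 E12.5 arrays were detected on no E11.5 array (2.19%). In sorted bulk RNA, fewer cells that hold a transcript and less of it per cell cannot be told apart.

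**Figure D2:**
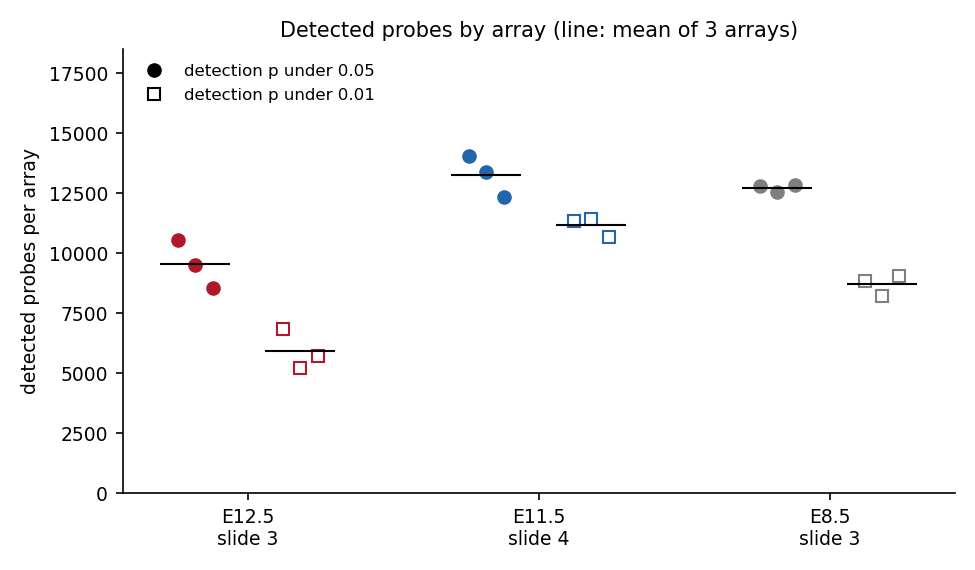
Probes detected per array (vertical axis, starting at 0) for the 3 E12.5 arrays, the 3 E8.5 arrays of the same slide and the 3 E11.5 arrays, at a detection p under 0.05 (filled circles) and under 0.01 (open squares), with the mean of 3 arrays as a line. The E12.5 points (8542 to 10570 at 0.05) lie below the E11.5 points (12355 to 14050).

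The size and sign of many changes depended on how arrays were put on 1 scale. With quantile-normalised log2 intensities, which give every array the same distribution, 4737 of 9412 genes tested were called at an adjusted p under 0.05 in limma (50.3%), 2508 of them higher at E12.5 (26.6%) and 2229 lower (23.7%), and the median change of all genes was -0.016. With scores made from ranks within each array, 2160 genes were higher (22.9%) and 2292 lower (24.4%), and 4102 genes were called the same way by both, none in opposite directions. Median scaling instead set each array by the median of the probes detected on all 18 arrays. It put 7350 genes higher and 560 lower, with the median of all genes moved by 1.90 on the log2 scale. Scaling to the upper quartile gave 1097 higher and 4934 lower with a median of -0.59, and signals left without normalization gave 3092 higher and 4288 lower with a median of -0.24. These 3 differ only by a constant per array, and once each array is shifted so that its median deviation over all genes is 0 they become 1 scale, called the scaled values here. On it 3653 genes were higher (38.8%) and 4033 lower (42.8%), with 2978 called as on the quantile scale and 730 called the opposite way.

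Measured genes and genes near background moved apart in the signals before normalization. The 3732 genes detected on all 6 arrays had a median unnormalised change of -1.56, whereas the 821 genes tested but detected on none of the 6 had +0.73, so a scale set by all genes lowers the measured ones. When scaling used only the 3732 measured genes, 1068 were higher and 1255 lower, 1438 were called as on the quantile scale and 13 the opposite way, and 75.8% had the same sign. Cyclic loess called 1146 genes higher and 1013 lower. A total of 2050 genes were called higher and 488 lower alike by the quantile, rank and median scales. The median scale alone called 7350 genes higher and 560 lower. Agreement with it was therefore easy to reach for increases and limited for decreases. The signals were also affected upstream, since the deposited signals of the E11.5 slide have 1 common distribution, with 5 quantiles within 0.404% of each other, and those of the E12.5 slide do not (up to 122%). Below, values are quantile-scale log2 intensities, changes are E12.5 minus E11.5 with a standard error (SE), and adjusted p-values are from limma with Benjamini-Hochberg adjustment over all features. A fold given as at least a value is a bound on the quantile scale only, and other scales can give a smaller change. For genes called on the quantile scale, a sign that turns on the scaled values, on scaling by measured genes or under loess is given beside the result. Counts in gene lists stand beside 26.6% of all genes higher and 23.7% lower on the quantile scale, and 38.8% and 42.8% on the scaled values. With scaling by measured genes the counts were 1068 and 1255 of 3732, and under loess 1146 and 1013 of 9412.

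**Figure D3:**
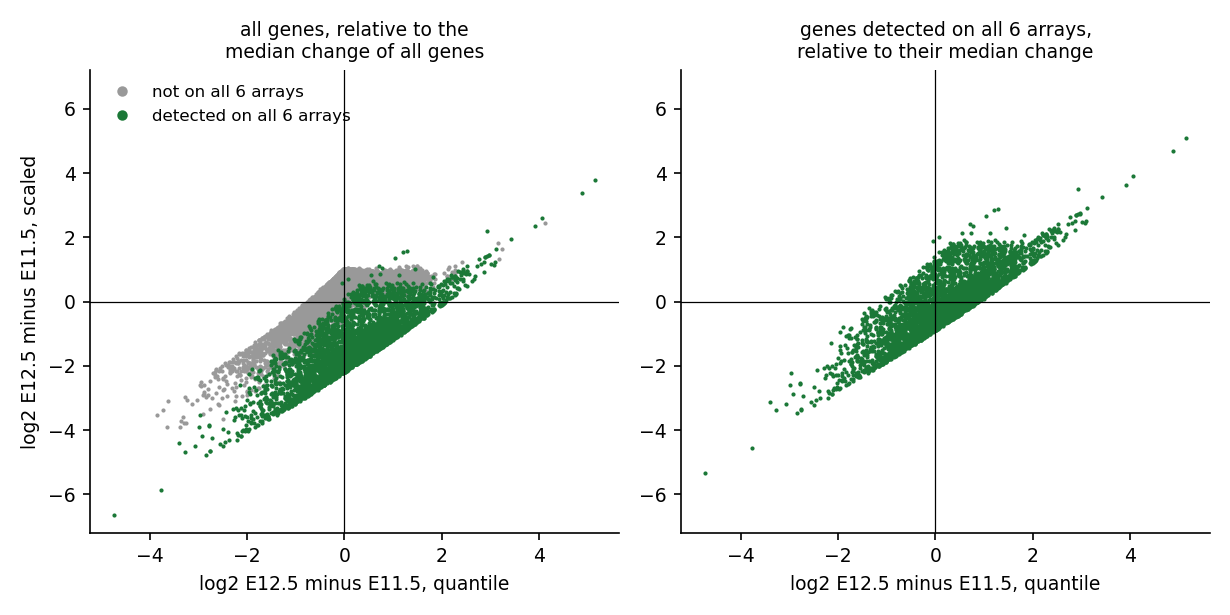
Change per gene on the quantile scale (horizontal axis, log2 E12.5 minus E11.5) against the change with scaled arrays (vertical axis, log2), for all 9412 genes on the left and for the 3732 genes detected on all 6 arrays, scaled among themselves, on the right. Grey points, genes not detected on all 6 arrays, rise above the green points on the left, and the right panel runs along the diagonal.

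The size of the stage difference can be set beside a difference between slides without one of stage. E8.5 arrays lay on the slide of E12.5 (n = 3) and on another slide that is not that of E11.5 (n = 3). Between these slides 2353 of the 9412 genes were called (25%). There 323 genes (3.43%) differed over 2-fold, against 2375 genes (25.2%) between E12.5 and E11.5. No stage lay both on the slide of E11.5 and on another slide, so the part of that slide was not tested. With slide as a random block, at an estimated correlation of 0.31 within slides, 1836 genes were higher and 1450 lower at E12.5. Signals correlated at 0.944 to 0.968 among E12.5 arrays, 0.982 to 0.99 among E11.5 arrays and 0.8 to 0.887 between the stages.

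DNA replication genes were lower at E12.5 nearly throughout. Of 38 tested, 34 fell and 1 rose, with a median change of -1.96, and the scaled values gave 33 lower and 1 higher, the measured-gene scale 15 lower and 1 higher of 17, and loess 21 lower and 0 higher. Of the 36 replication genes detected on all 3 E11.5 arrays, 11 were detected on no E12.5 array.

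Rrm1, the large subunit of ribonucleotide reductase, had log2 intensities of 4.45, 4.43 and 4.39 in the E12.5 embryos, against 7.95, 7.97 and 8.22 in the E11.5 embryos. It was detected on no E12.5 array and, on the quantile scale, was at least 8.07-fold lower there (limma adjusted p = 6.44e-11). Tk1, thymidine kinase, had 4.51, 4.89 and 4.61 at E12.5, against 8.08, 7.998 and 7.79 at E11.5, and was likewise detected on no E12.5 array and at least 7.58-fold lower (adjusted p = 2.06e-10). The groups do not overlap for either enzyme, and the 3 E12.5 values sit at the level of undetected probes. The log2 changes of Rrm1 and Tk1 were smaller under loess (-1.42 and -1.19) and with median scaling (-1.11 and -0.98). Tyms, thymidylate synthase, had 6.17, 7.06 and 5.41 at E12.5, against 9.59, 9.44 and 9.78 at E11.5, a change of -3.39 ± 0.28 (SE). Dtymk, thymidylate kinase, which is not on that list, changed by -3.37 ± 0.38.

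The replicative helicase fell with them. Mcm6 had 5.995, 6.42 and 5.70 in the E12.5 embryos, against 9.16, 9.07 and 8.83 in the E11.5 embryos, a change of -2.98 ± 0.19 (adjusted p = 1.82e-10). Mcm5 changed by -2.85 ± 0.21 and Mcm7 by -3.30 ± 0.24. Lig1, the ligase that joins Okazaki fragments, had 4.57, 4.94 and 4.54 at E12.5, against 8.34, 8.51 and 8.76 at E11.5, was detected on no E12.5 array and was at least 11.3-fold lower on the quantile scale (adjusted p = 3.07e-08). Its log2 change was -1.72 under loess and -1.55 with median scaling. Lig1, Rrm1 and Mcm7 were also lower in E8.5 cells on the E12.5 slide than on the other slide, by -1.39, -0.52 and -0.53. Tk1 was higher there (+0.54). Rpa2, a subunit of the single-strand binding protein, changed by -2.87 ± 0.18, and the transcription factor E2f1, which drives S-phase genes, by -2.90 ± 0.23. Orc2, a subunit of the origin recognition complex, was the member that rose, with 6.41, 6.62 and 7.03 at E12.5, against 5.21, 5.56 and 5.02 at E11.5 (+1.42 ± 0.20). It was not called on the scaled values (+0.10) and was called on the measured-gene scale (+1.40). Pcna, the sliding clamp, had 6.09, 5.55 and 6.01 at E12.5, against 5.98, 5.95 and 5.89 at E11.5, and its groups overlap (-0.06 ± 0.29, adjusted p = 0.901, with -0.77 on the scaled values and +0.53 on the measured-gene scale).

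Genes of mitosis and cytokinesis were also mostly lower at E12.5. Of 39 tested, 29 fell and 2 rose, with a median change of -1.58, and the scaled values gave 31 lower and 6 higher, the measured-gene scale 18 lower and 2 higher of 21, and loess 25 lower and 0 higher. Top2a had 6.42, 5.17 and 5.43 in the E12.5 embryos, against 8.62, 8.85 and 8.42 in the E11.5 embryos, a change of -2.96 ± 0.29 (adjusted p = 7.48e-08). Smc2 had 7.66, 7.65 and 7.08 at E12.5, against 10.37, 10.27 and 10.03 at E11.5 (-2.76 ± 0.25). All E12.5 values of both genes lie more than 1 log2 unit below all E11.5 values. Spc25 was detected on no E12.5 array and was at least 5.04-fold lower. Aurkb, the kinase of the chromosomal passenger complex, had 5.55, 5.61 and 4.54 at E12.5, against 7.71, 8.05 and 7.86 at E11.5 (-2.64 ± 0.23). Bub1, a checkpoint kinase, went the other way (+0.91 ± 0.17, with -0.16 under loess), as did Cdc25b, a phosphatase that activates cyclin-dependent kinases (+0.69 ± 0.19), whose sign turned on the scaled values (-1.47), on the measured-gene scale (-0.17) and under loess (-0.24).

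The cyclin list was mixed, with 4 of 16 genes higher and 6 lower, and the 4 higher calls were 0 under loess. Cdk2 changed by -1.70 ± 0.19 and Cdk4, the partner of D cyclins, by -2.24 ± 0.29. Ccng2, a cyclin known for high levels in resting cells, rose by 1.25 ± 0.18 on the quantile scale and by 0.37 on the measured-gene scale, and was lower on the scaled values (-0.93) and under loess (-0.67).

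Genes of chromatin and the nuclear envelope were more often lower at E12.5. The list for chromatin condensation and nuclear envelope had 3 of 28 higher and 16 lower (median -0.79), and 0 of 18 higher and 11 lower on the measured-gene scale. Tmpo, a lamina-associated protein, had 6.37, 5.23 and 4.49 at E12.5, against 9.14, 8.996 and 8.86 at E11.5 (-3.64 ± 0.43). Lmnb1, lamin B1, had 4.51, 4.60 and 4.49 at E12.5, against 6.18, 6.22 and 6.23 at E11.5, was detected on no E12.5 array and was at least 2.26-fold lower. Uhrf1, which recruits the maintenance DNA methyltransferase, changed by -2.77 ± 0.25. Hdac5, a class IIa histone deacetylase, rose by 0.92 ± 0.19 on the quantile scale, was lower on the scaled values (-1.10) and under loess (-0.46), and was not called on the measured-gene scale (+0.20).

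The histone list among the 45 gene lists was even, with 4 of 12 genes higher and 4 lower. On the measured-gene scale it had 3 higher and 5 lower of 10. Replication-dependent histone genes, a set picked by symbol after their values were seen, had 17 of 43 genes lower and 6 higher, 24 lower and 5 higher of 34 on the measured-gene scale. H2ac15 had 6.83, 7.91 and 7.17 in the E12.5 embryos, against 11.87, 12.58 and 11.63 in the E11.5 embryos, the largest decrease that the naming rule took (-4.72 ± 0.38, adjusted p = 5.33e-09). H2ac12 changed by -3.77 ± 0.46. H2ac19 rose, with 10.17, 10.99 and 11.22 at E12.5, against 8.29, 8.47 and 8.05 at E11.5 (+2.52 ± 0.23), and H2ac18 rose by 2.03 ± 0.25. Histone H2A genes are near-identical copies, so which copy a probe reads is uncertain. In E8.5 cells 18 of the 43 genes were called lower and 1 higher on the E12.5 slide than on the other slide. There 25% of all genes were called in either direction. H2ac15 and H2ac12 were among those lower, by -1.13 and -1.56. The part of the slide in the stage difference of this set was not tested.

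Nuclear transport genes included both directions. Of 34 nuclear pore and transport genes, 17 fell and 4 rose (median -0.66), but loess gave 3 lower and 6 higher. Ranbp1, a regulator of the Ran cycle, had 8.33, 9.12 and 8.197 at E12.5, against 10.74, 10.71 and 10.73 at E11.5 (-2.18 ± 0.21). Xpo7, an export receptor known to be needed for nuclear condensation in mouse erythroblasts, rose to 9.27, 8.41 and 8.24 in the E12.5 embryos, against 6.44, 6.04 and 6.56 in the E11.5 embryos (+2.29 ± 0.25, adjusted p = 2.46e-07). It was called higher on the measured-gene scale too (+1.54) and was not called on the scaled values (+0.24). Nup133, a scaffold nucleoporin, rose by 1.61 ± 0.20 and had -0.41 on the scaled values.

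Lists of the growth machinery leaned to lower levels at E12.5 on the quantile scale. Ribosome assembly genes had 16 of 25 lower and 0 higher (median -0.86), with Nop56, a core protein of box C/D particles, at -2.23 ± 0.35 and Nhp2, of box H/ACA particles, at -1.26 ± 0.20. Splicing factors had 18 of 35 lower and 4 higher (median -0.59), with the spliceosomal Snrpd1 at -1.92 ± 0.22, and respiratory chain genes 24 of 47 lower and 3 higher (median -0.65), with the complex I subunit Ndufab1 at -1.88 ± 0.24. Cytosolic ribosomal proteins had 20 of 49 lower and 2 higher (median -0.29), with Rpl10a at -1.62 ± 0.23 and the brightest probe of Rps24 detected on no E12.5 array and at least 2.89-fold lower, although loess gave it +0.13 and another of its probes was called higher (+1.07). Loess turned 2 of these lists, giving 21 ribosomal protein genes higher and 4 lower and 14 respiratory genes higher and 10 lower, and it gave 5 ribosome assembly genes higher and 6 lower. On the measured-gene scale the lower calls led in all 4 lists, with 9 against 1 for ribosome assembly, 21 against 2 for splicing, 20 against 1 for the respiratory chain and 21 against 2 for ribosomal proteins.

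**Figure D4:**
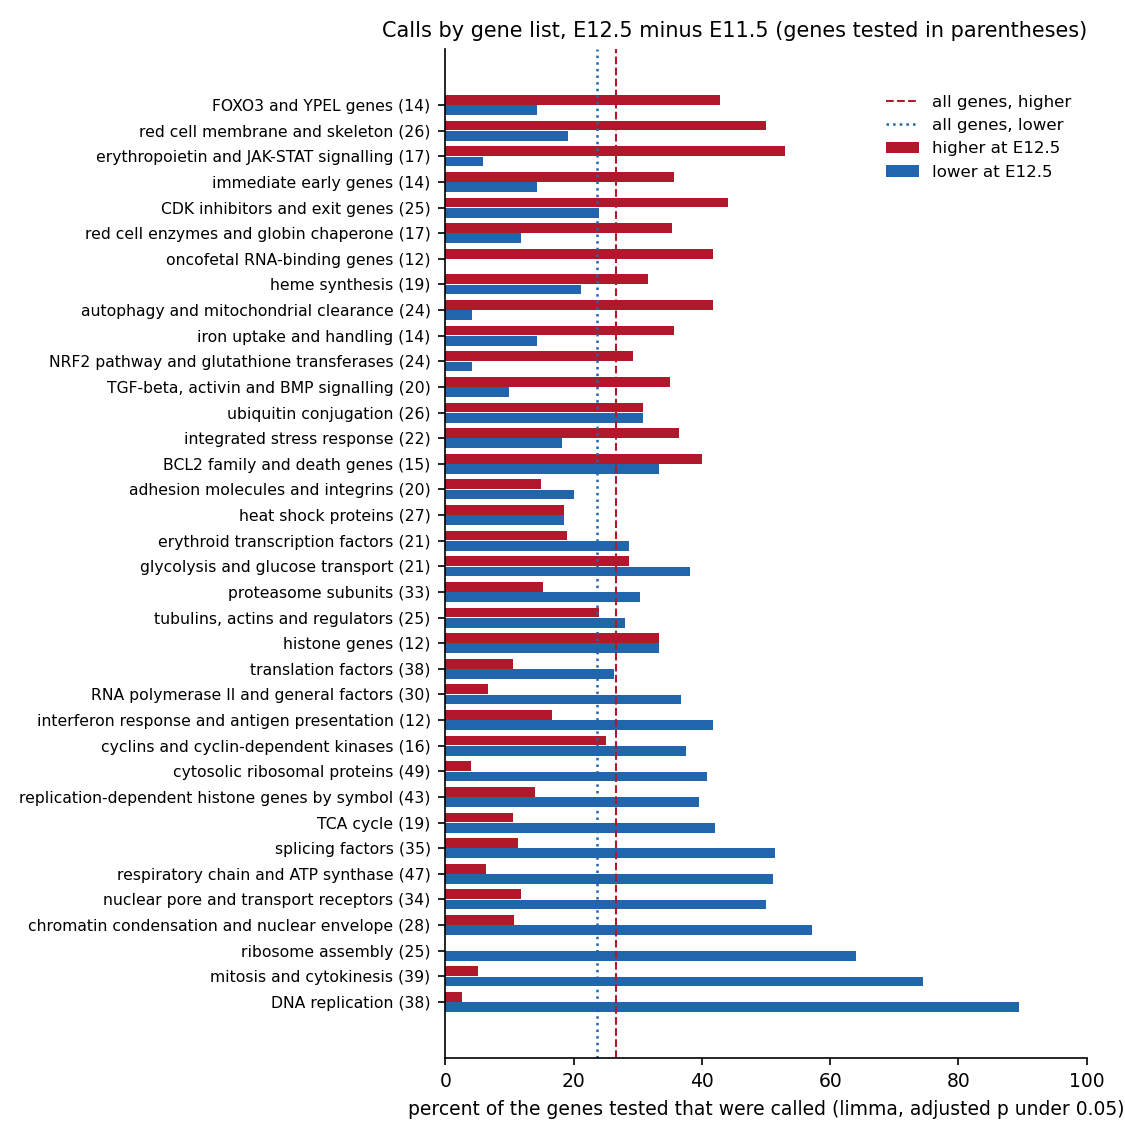
Percent of the genes tested in each list (horizontal axis) called higher at E12.5 (upper bar of each pair) and lower (lower bar), with lists ordered by median change and the shares of all genes as lines at 26.6% higher and 23.7% lower. DNA replication (34 of 38 lower) and mitosis (29 of 39 lower) have the longest bars.

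Among the 12 largest increases called alike by the quantile, rank and median scales, with groups that do not overlap, Hmox1 came first. Hmox1, heme oxygenase 1, which breaks down heme, had 11.12, 9.996 and 11.21 in the E12.5 embryos, against 6.06, 5.75 and 5.09 in the E11.5 embryos, a change of +5.14 ± 0.32 (adjusted p = 1.61e-10). It was higher under each scale, at +3.78 on the scaled values, +5.08 on the measured-gene scale and +4.75 under loess. Bach1, the heme-binding repressor of Hmox1, was higher as well, with 8.60, 7.92 and 8.26 at E12.5, against 5.64, 5.74 and 4.83 at E11.5 (+2.86 ± 0.25). Rsad2, an interferon-induced antiviral protein, had 12.65, 12.33 and 12.53 at E12.5, against 6.97, 9.55 and 6.33 at E11.5 (+4.89 ± 0.45), and 1 E11.5 embryo stood above the other two. Tbcel, which destabilises tubulin, had 12.81, 12.12 and 12.60 at E12.5, against 8.57, 8.58 and 8.21 at E11.5 (+4.06 ± 0.26). In E8.5 cells Tbcel was also higher on the E12.5 slide than on the other slide, by 0.62.

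Hbq1a, an alpha-like theta globin gene, had 8.68, 9.22 and 10.07 in the E12.5 embryos, against 5.56, 5.14 and 5.51 in the E11.5 embryos (+3.92 ± 0.25, adjusted p = 1.82e-10). The small heat shock protein Hspb8 rose by 3.43 ± 0.22 and the zinc finger factor Klf6 by 3.11 ± 0.31. Both basement membrane collagen genes of the Col4a1 and Col4a2 pair were among the 12, and Col4a2 had 9.88, 8.38 and 8.21 at E12.5, against 4.65, 4.79 and 4.70 at E11.5 (+4.11 ± 0.38, with +2.44 on the scaled values and +2.85 under loess). It was detected on 1 of 3 E11.5 arrays, so its E11.5 level is near background. Col4a1, whose gene lies head to head with Col4a2, was detected on no E11.5 array and was at least 7.53-fold higher at E12.5. The skeletal muscle actin Acta1 was detected on no E11.5 array and was at least 8.22-fold higher, with +1.63 on the scaled values and +0.79 under loess. The alpha tubulin Tuba1a rose by 3.17 ± 0.17, the chemokine scavenger Ackr3 by 3.07 ± 0.17 and the potassium channel Kcnc4 by 3.10 ± 0.24. Their changes were smaller on the scaled values (+1.33, +1.15 and +1.22) and under loess (+0.62, +0.99 and +0.65), where all 3 were still called higher. Among the 12 largest decreases, those not described above were Selenoh, a nucleolar selenoprotein, at -3.73 ± 0.44, Glipr2 at -3.35 ± 0.34 and Itpripl1 at -3.31 ± 0.30. Selenoh and Tmpo were also lower in E8.5 cells on the E12.5 slide, by -1.72 and -1.28.

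**Figure D5:**
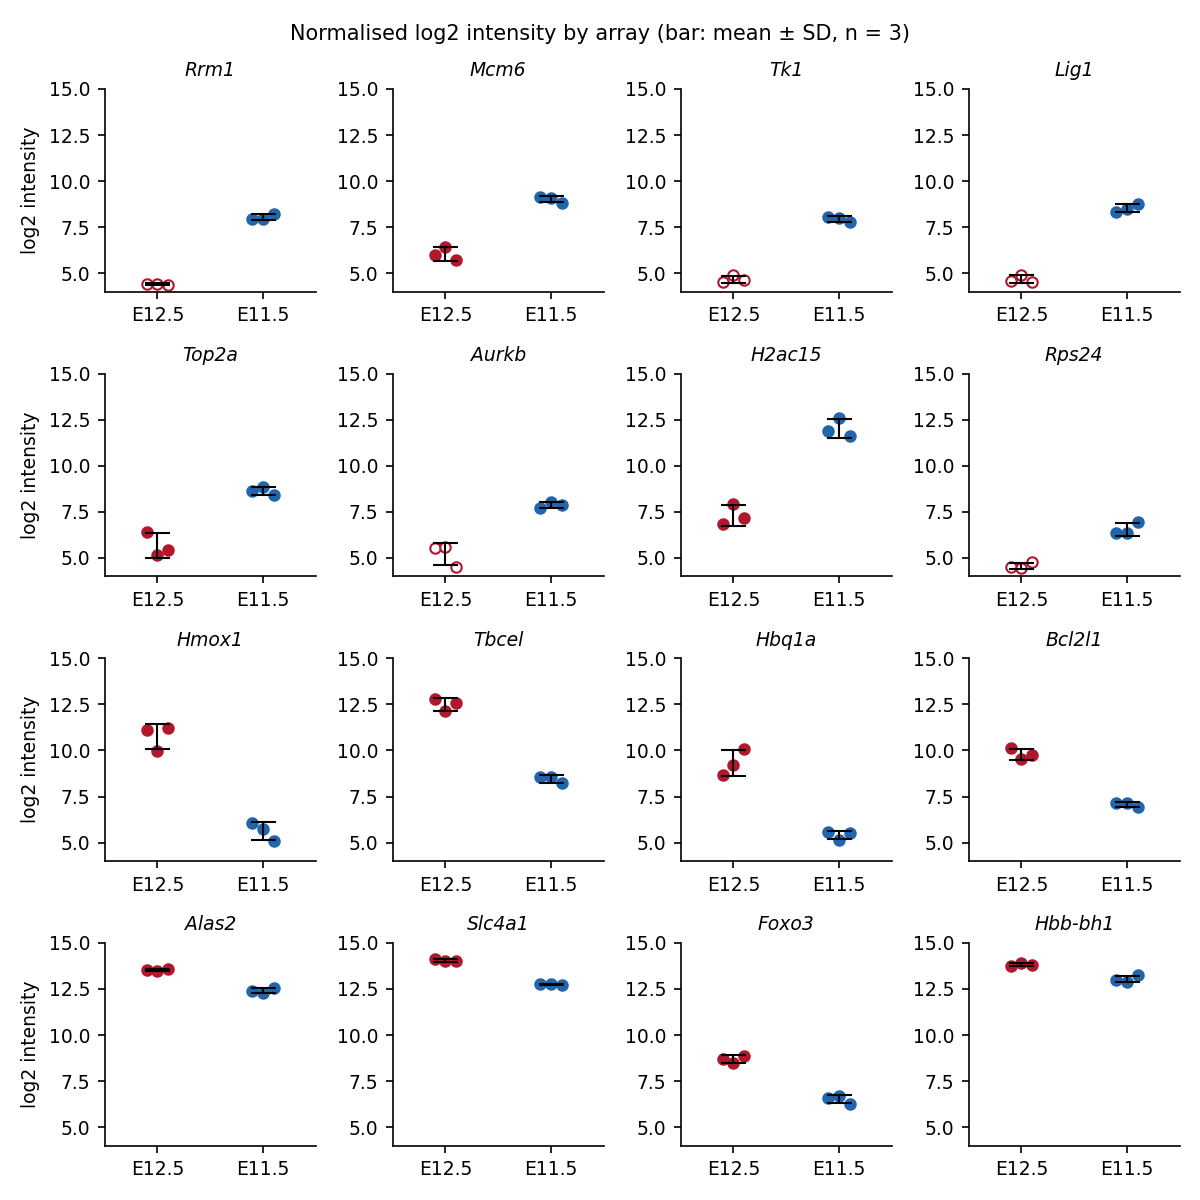
Quantile-normalised log2 intensity (vertical axis) of 16 genes in the 3 E12.5 embryos (left) and the 3 E11.5 embryos (right) of each panel, with mean ± SD. Open circles mark stages where a gene was not detected on all 3 arrays, as for Rrm1, Tk1 and Lig1 at E12.5, and the groups of Hmox1 (9.996 to 11.21 against 5.09 to 6.06) are far apart.

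Both embryonic globin genes with a probe were higher at E12.5 on the quantile scale. Hbb-bh1, the embryonic beta-like chain, had 13.77, 13.88 and 13.82 in the E12.5 embryos, against 13.01, 12.88 and 13.24 in the E11.5 embryos (+0.78 ± 0.26, adjusted p = 0.0149). Hba-x, the embryonic zeta chain, had 13.95, 14.04 and 14.04 at E12.5, against 13.14, 13.41 and 13.34 at E11.5 (+0.71 ± 0.24, adjusted p = 0.0177). Neither was called with slide as a random block (limma adjusted p = 0.16 for Hbb-bh1 and 0.14 for Hba-x). Without E11.5 replicate 2 the limma adjusted p of Hbb-bh1 was 0.0574, and that of Hba-x passed 0.05 without E12.5 replicate 3 and without E11.5 replicate 1, where it was 0.0686. Other scales put both higher, Hbb-bh1 by 2.35 and Hba-x by 2.41 among measured genes and by 4.22 and 4.35 under loess. Their probes were among the brightest of all arrays, where quantile normalization allows little difference, so the sizes depend on the scale.

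Hba-a1, the adult alpha chain, rose by 1.03 ± 0.25 (adjusted p = 0.00154), with 14.04, 14.12 and 14.12 at E12.5, against 12.998, 13.23 and 12.94 at E11.5. The adult beta genes were not called by their brightest probes, with Hbb-bs at 13.90 in all 3 E12.5 embryos, against 13.86, 13.93 and 13.70 in the E11.5 embryos, and Hbb-bt at -0.05 ± 0.23, while another probe of Hbb-bt was called higher (+1.48, adjusted p = 0.00105). Among measured genes Hbb-bs was higher by 2.00 and Hbb-bt by 1.87. Hbb-b2, the other adult beta gene tested, was not called on the quantile scale (-0.45) or among measured genes (-0.52). On the scaled values Hbb-b2 was called lower (-1.82), while Hbb-bs (+0.70) and Hbb-bt (+0.57) were called higher. Globin genes are near-identical copies within the adult alpha and adult beta pairs, so the copy each probe reads is uncertain.

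Heme and iron genes changed in both directions. Of 19 heme genes 6 rose (31.6%, against 26.6% of all genes) and 4 fell (21.1%, against 23.7%), with a median of +0.26, beside 4 higher and 12 lower on the scaled values and 6 higher and 2 lower of 14 on the measured-gene scale. Alas2, the erythroid first enzyme of heme synthesis, had 13.55, 13.49 and 13.59 in the E12.5 embryos, against 12.38, 12.31 and 12.58 in the E11.5 embryos (+1.12 ± 0.19, adjusted p = 2.96e-05). The glycine transporter Slc6a9 rose by 1.41 ± 0.21 but had -0.06 on the scaled values, and the heme exporter Flvcr1 rose by 1.21 ± 0.15. Blvra, biliverdin reductase A, which acts after heme oxygenase, had 6.15, 7.11 and 4.96 at E12.5, against 7.70, 7.995 and 8.05 at E11.5 (-1.84 ± 0.32). Fech, which inserts iron to make heme, had 10.67, 9.78 and 9.60 at E12.5, against 9.44, 9.62 and 9.36 at E11.5, and was not called by its brightest probe (+0.55, adjusted p = 0.115), which had -0.98 on the scaled values. The other probes of Fech were called higher, at +0.82 (adjusted p = 0.00721) and +0.61 (adjusted p = 0.0463). Of 14 iron genes 5 rose and 2 fell (2 and 8 on the scaled values, 6 and 3 on the measured-gene scale). The mitochondrial iron importer Slc25a37 rose by 1.21 ± 0.20, which had -0.23 on the scaled values, the transferrin sensor Tfr2 changed by -1.25 ± 0.23, and the transferrin receptor Tfrc by +0.04 ± 0.20 (adjusted p = 0.899), with -1.45 on the scaled values, -0.15 on the measured-gene scale and +0.91 under loess.

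Genes of the red cell membrane and skeleton had 13 of 26 higher and 5 lower at E12.5 (median +0.65), but 4 higher and 16 lower on the scaled values, and 11 higher and 7 lower of 23 on the measured-gene scale. Slc4a1, the band 3 anion exchanger, had 14.12, 13.99 and 13.99 in the E12.5 embryos, against 12.78, 12.75 and 12.72 in the E11.5 embryos (+1.29 ± 0.32, adjusted p = 0.00176). Xk, a blood group antigen carrier, had 11.42, 10.26 and 11.13 at E12.5, against 8.18, 8.03 and 7.93 at E11.5 (+2.89 ± 0.25). Both were higher on each scale named above, Slc4a1 by 1.57 and Xk by 1.40 on the scaled values. The glucose transporter Slc2a1 fell, with 8.12, 8.37 and 7.72 at E12.5, against 9.88, 9.51 and 9.52 at E11.5 (-1.57 ± 0.31), and Cd47 changed by -1.59 ± 0.24. The urea transporter Slc14a1 was detected on no E12.5 array and was at least 4.13-fold lower. Among red cell enzymes, the pyrimidine nucleotidase Nt5c3, known for clearing RNA breakdown products in reticulocytes, rose by 2.32 ± 0.26, and the pyruvate kinase Pklr changed by -1.92 ± 0.26.

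Erythropoietin and JAK-STAT genes had 9 of 17 higher (52.9%, against 26.6% of all genes) and 1 lower (5.88%, against 23.7%), with a median of +0.58. They turned to 2 higher and 10 lower on the scaled values, and had 4 higher and 1 lower of 14 on the measured-gene scale. Bcl2l1, the survival gene induced by erythropoietin, had 10.12, 9.52 and 9.73 in the E12.5 embryos, against 7.17, 7.15 and 6.91 in the E11.5 embryos (+2.71 ± 0.19, adjusted p = 9.86e-10), and it was higher on each scale, by 1.11 on the scaled values and 2.06 under loess. Stat3 rose by 1.83 ± 0.25 and Stat5a by 1.44 ± 0.26, and both were slightly below 0 on the scaled values (-0.05 and -0.33). Epor, the receptor, had 7.83, 7.64 and 8.15 at E12.5, against 8.46, 8.17 and 8.38 at E11.5, and was not called by its brightest probe (adjusted p = 0.0749). Another probe of Epor was called lower (-1.04, adjusted p = 0.000418).

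Erythroid transcription factors had 4 of 21 higher and 6 lower on the quantile scale (median -0.07), 4 higher and 13 lower on the scaled values and 8 higher and 4 lower under loess. Tal1 had 13.16, 13.03 and 13.15 in the E12.5 embryos, against 12.10, 11.77 and 11.95 in the E11.5 embryos (+1.17 ± 0.25), and Klf3, a repressor in the Klf1 network, rose by 1.72 ± 0.29. Klf1 had 11.18, 10.47 and 10.40 at E12.5, against 11.39, 11.29 and 11.62 at E11.5 (-0.75 ± 0.31, adjusted p = 0.0472). Klf1 was not called when any 1 array other than E12.5 replicate 1 was left out (adjusted p up to 0.165, without E12.5 replicate 3), nor with rank scores or slide as a random block, and loess gave +0.39. Gata1 had 7.34, 7.61 and 7.5004 at E12.5, against 7.88, 7.84 and 7.93 at E11.5, which do not overlap but missed the threshold (adjusted p = 0.0713). Nfe2 had overlapping values and a change of -0.07 ± 0.46. Ikzf1, a lymphoid and globin-switching factor, changed by -1.71 ± 0.28 by its brightest probe, while another of its probes was called higher (+0.82).

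Genes tied to leaving the cell cycle and clearing organelles were more often higher at E12.5 on the quantile scale. Of 24 autophagy genes 10 rose (41.7%, against 26.6% of all genes) and 1 fell (4.17%, against 23.7%). On the scaled values 7 were higher and 10 lower, and on the measured-gene scale 9 and 3 of 15. Bnip3l, the receptor that clears mitochondria from maturing red cells in mice, had 11.11, 10.66 and 11.43 in the E12.5 embryos, against 9.42, 9.10 and 9.25 in the E11.5 embryos (+1.81 ± 0.25). Sqstm1, an autophagy cargo adaptor, rose by 2.26 ± 0.22 and Gabarapl1, which coats autophagosomes, by 2.36 ± 0.24. Foxo3, a factor active in resting and maturing erythroid cells, had 8.71, 8.46 and 8.89 at E12.5, against 6.61, 6.71 and 6.27 at E11.5 (+2.16 ± 0.23), and Ypel5 rose by 2.21 ± 0.23. On the scaled values Sqstm1 (+0.81) and Ypel5 (+0.77) were still called higher, and Bnip3l (+0.40), Gabarapl1 (+0.40) and Foxo3 (+0.12) were not called.

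Of 25 genes of CDK inhibition and exit, 11 rose (44%, against 26.6% of all genes) and 6 fell (24%, against 23.7%). The scaled values gave 7 and 15, the measured-gene scale 5 and 3 of 15, and loess 4 and 7. Cdkn1b, the inhibitor p27, had 6.84, 5.03 and 5.41 in the E12.5 embryos, against 4.72, 4.90 and 4.51 in the E11.5 embryos (+1.05 ± 0.26), and had -0.07 under loess. Cdkn2c, the inhibitor p18, has 3 tested probes that disagree, the brightest at -0.55 ± 0.21 (adjusted p = 0.0353) and the others at -3.02 and +2.42, and the brightest was not called when any 1 array other than E12.5 replicate 2 was left out (adjusted p up to 0.116, without E12.5 replicate 1). Mxi1, an antagonist of MYC, rose by 1.61 ± 0.16, with -0.14 on the scaled values and -0.26 under loess, while Myc itself was detected on no E12.5 array and was at least 1.27-fold lower, with +0.08 under loess.

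The ubiquitin-conjugating enzyme Ube2o, which marks ribosomal proteins for removal in mouse reticulocytes, had 13.41, 13.04 and 13.28 in the E12.5 embryos, against 10.59, 10.39 and 9.97 in the E11.5 embryos (+2.92 ± 0.22, adjusted p = 2.33e-09), and was higher on each scale, by 2.19 on the scaled values and 4.58 under loess. Its list of ubiquitin conjugation genes was even, with 8 of 26 higher and 8 lower. Of 24 NRF2 pathway genes 7 rose (29.2%, against 26.6% of all genes) and 1 fell (4.17%, against 23.7%). On the scaled values 8 were higher and 11 lower, where 38.8% of all genes were higher and 42.8% lower. Slc7a11, the cystine importer, rose by 1.30 ± 0.17, and Srxn1, which repairs peroxiredoxins, rose by 1.53 ± 0.19 but had -0.60 on the scaled values. Of 22 integrated stress response genes 8 rose (36.4%) and 4 fell (18.2%), with 5 and 12 on the scaled values and 4 and 4 of 15 on the measured-gene scale. Trib3, a pseudokinase induced by that response, had 12.07, 10.71 and 11.40 at E12.5, against 8.55, 8.69 and 8.05 at E11.5 (+2.96 ± 0.38). Gapdh, often taken as a steady gene, was higher by 0.78 ± 0.22 on the quantile scale and lower on the scaled values (-0.51).

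Markers of macrophages and leukocytes, of definitive erythroid cells and of hepatocytes and endoderm were mostly undetected at both stages. Of 18 macrophage and leukocyte markers with a probe, 0 were detected on all 3 arrays at E12.5 and 2 at E11.5, while 15 were detected on no E12.5 array and 15 on no E11.5 array. Of 5 markers of definitive erythroid cells, the later lineage from the fetal liver, 0 were detected on all 3 arrays at E12.5 and 1 at E11.5, with the stem cell receptor Kit detected on no array of either stage. Of 15 hepatocyte and endoderm markers 11 were detected on no E12.5 array and 12 on no E11.5 array, Alb and Afp among them at both stages. The summed linear levels of tested markers were 88.5 to 96.4 at E12.5 and 100.3 to 116.5 at E11.5 for macrophages and 95.7 to 104 at E12.5 and 109 to 131.7 at E11.5 for definitive erythroid cells. Each of these sums covers only 4 tested markers. Of these 4, 0 were detected on all 3 E12.5 arrays in either list, and 2 (macrophage) and 1 (definitive erythroid) on all 3 E11.5 arrays. The sums therefore lie near background.

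Of 12 megakaryocyte markers with a probe, 2 were detected on all 3 arrays at E12.5 and 4 at E11.5, and 8 were detected on no E12.5 array and 4 on no E11.5 array. Of 16 endothelial markers, 4 were detected on all 3 arrays at each stage, which were Kdr, Emcn, Egfl7 and Vwf, and 12 were detected on no E12.5 array and 8 on no E11.5 array. The sums of 10 tested megakaryocyte markers were 1220 to 1810 at E12.5 and 471 to 526 at E11.5, and those of 10 tested endothelial markers 2823 to 3163 at E12.5 and 1899 to 2210 at E11.5. Vwf alone separated them, since without it the sums overlap, at 249.8 to 335.5 at E12.5 and 278.8 to 320.8 at E11.5 for megakaryocyte markers and 1683 to 1938 at E12.5 and 1686 to 2018 at E11.5 for endothelial markers. Vwf, which is on both lists, had 10.53, 9.79 and 10.01 in the E12.5 embryos, against 7.48, 7.58 and 7.73 in the E11.5 embryos (+2.51 ± 0.25). The platelet genes Ppbp and Treml1 were detected on 0 of 3 E12.5 arrays and 3 of 3 E11.5 arrays, Pf4 on 0 and 2, and the endothelial Pecam1 and Tek on none of the 6. Of 14 mesenchyme markers 2 were detected on all 3 arrays at E12.5 and 4 at E11.5, and 8 on no E12.5 array and 9 on no E11.5 array. Col1a1 and Col1a2 were detected on none of the 6 arrays. Prrx1 was detected on 3 of 3 arrays at both stages, Vim on 3 at E12.5 and 2 at E11.5, and Twist1 on 0 and 3. The sums of the 5 tested were 2170 to 3281 at E12.5 and 3030 to 3295 at E11.5. Of 11 neural markers 2 were detected on all 3 arrays at each stage, and 7 on no E12.5 array and 5 on no E11.5 array. The 5 tested neural markers summed to 266 to 420 at E12.5 and 231 to 289 at E11.5. The part of such cells in the rise of Vwf, Col4a1 and Col4a2 was not tested.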

How the data were processed

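The deposited signal file gives a mean intensity per probe and array, called non-normalized per the file headers, with a detection p-value for each. A second deposited table holds the authors' processed values on a log2-like scale, whose transform is not given in the sources used here, nor is the image software. The intensities of the E11.5 slide already have 1 common distribution, as read from the values.

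Here intensities were background-corrected, given an offset of 16 and quantile-normalised in log2 with neqc of limma, version 3.58.1 (R, version 4.3.3, and data.table, version 1.17.8), over the 18 arrays with 1 round of amplification. Of 45719 probes, 29490 carry 1 gene symbol, 8 several and 16221 none. Probes with a detection p under 0.05 on at least 3 of the 18 arrays were tested, a gene by its probe with the highest mean, and 9412 genes and 4404 probes without a single symbol entered 1 fit (lmFit, eBayes with trend, Benjamini-Hochberg over all, called under 0.05). For genes with no detected array at a stage, the fold is a bound on the quantile scale against the highest level among undetected probes of each array, or the gene's own where that was higher. Of 2705 genes with several tested probes, 199 had probes called in opposite directions, and 3 of these are named here (Cdkn2c, Ikzf1 and Rps24). A further probe was not called for Cd47, Cdk4, Gapdh, Grb10, Hbb-bh1, Hdac5, Klf3, Ndufab1, Smc2, Stat3, Tgif1 and Tmpo.

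The naming rule took the 12 largest increases and 12 largest decreases called alike by 3 scales, up to 3 members of each of 45 gene lists by smallest p with called members against the list's trend, and a panel of 30 genes, 6 of them without an annotated probe and Npm1 not tested. Most of these are given. Mcm5 and H2ac19 fall outside the rule and were picked with their values in view. The comparison and the lists were chosen with earlier results of these data known. The p-values rest on the spread between embryos within stages, pooled over all stages in the fit. E12.5 and E11.5 each lay on 1 slide, but E8.5 arrays of different slides formed a single group. The pooled spread therefore also holds a part of the slide difference at E8.5. Splitting E8.5 by slide gave 5175 called genes, against 4737 in the main fit. Fitting only the E12.5 and E11.5 arrays gave 4344. Promoters matched by symbol for 7704 genes. Scripts were tested on simulated data. Alternatives covered the scale, the background, the filter, the arrays fitted, blocks and each array left out.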

Additional observations from a re-analysis of the deposited data

How the results depend on the processing

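The count of called genes, 4737, became 7910 with median scaling, 7380 without normalization between arrays, 7686 on the scaled values shifted by the median over all genes, 2323 with scaling by the genes detected on all 6 arrays, 2159 with cyclic loess, 2068 on the quantile scale with genes detected on all 6 arrays only, and 1908 in a test against 1.5-fold. The 2 kinds of shifted scaled values were chosen after seeing the data. The share of calls that were higher at E12.5, 52.9%, became 92.9% with median scaling, 18.2% with upper quartile scaling and 41.9% without normalization, and the median of all genes became 1.90, -0.59 and -0.24. Median scaling raised the genes called between E8.5 arrays of both slides to 4954. Leaving out 1 array gave 4182 to 4853 called genes, 53.3% to 55.5% of them higher. With replicate number as a block 2660 genes were higher and 2467 lower, but samples of the same number did not deviate together (correlations of 0.057, 0.040 and -0.153), so the numbers give no pairing. The direction of named genes, among those called on the quantile scale or under the alternative, turned in 3 of the settings where it was counted. It was not counted under median scaling, upper quartile scaling or no normalization. Those scales called 1237, 915 and 756 of all genes tested the opposite way to the quantile scale. On the scaled values it turned for Ccng2 (-0.93), Cdc25b (-1.47), Fech (-0.98), Gapdh (-0.51), Hbb-bt (+0.57), Hdac5 (-1.10), Mxi1 (-0.14), Nup133 (-0.41), Slc25a37 (-0.23), Slc6a9 (-0.064), Srxn1 (-0.60), Stat3 (-0.048), Stat5a (-0.33) and Tfrc (-1.45). On the measured-gene scale it turned for Cdc25b (-0.17) and Hbb-bt (+1.87), and under loess for Bub1 (-0.16), Ccng2 (-0.67), Cdc25b (-0.24), Cdkn1b (-0.070), Hbb-bt (+3.66), Hdac5 (-0.46), Klf1 (+0.39), Mxi1 (-0.26), Myc (+0.081), Rps24 (+0.13) and Tgfb3 (-0.058). The cause of these turns was not tested. Slide as a random block ended the calls of Cdc25b, Cdkn2c, Hba-x, Hbb-bh1 and Klf1. The signal over background limits the E12.5 arrays most, where genes near background have bounds only.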

Other observations

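Values of other lists stand beside 26.6% of all genes higher and 23.7% lower. TGF-beta, activin and BMP genes had 7 of 20 higher at E12.5 (35%) and 2 lower (10%), with 11 higher and 2 lower on the scaled values. Tgif1, a corepressor of SMAD signalling, had 6.01, 6.32 and 7.06 in the E12.5 embryos, against 4.90, 5.19 and 4.66 in the E11.5 embryos (+1.55 ± 0.22), and the ligand Tgfb3 rose by 1.14 ± 0.18, with -0.058 under loess. Of 14 immediate early genes 5 rose (35.7%) and 2 fell (14.3%), among them Zfp36, which destabilises AU-rich transcripts, with 9.29, 8.82 and 9.22 at E12.5, against 6.51, 6.39 and 6.36 at E11.5 (+2.69 ± 0.25), and Ier3 at -1.96 ± 0.27. Of 12 oncofetal genes 5 rose (41.7%) and 0 fell (3 and 4 on the scaled values), with the imprinted growth inhibitor Grb10 at +1.47 ± 0.23.

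Protein quality genes were mixed, with 5 of 27 heat shock genes higher and 5 lower and 5 of 33 proteasome genes higher and 10 lower, a balance that loess turned to 14 higher and 2 lower. Hspa9, the mitochondrial chaperone, had 5.23, 4.69 and 4.69 in the E12.5 embryos, against 7.28, 7.13 and 7.0996 in the E11.5 embryos (-2.30 ± 0.32), and it was also lower in E8.5 cells on the E12.5 slide, by -1.18. Of 12 interferon and antigen presentation genes 2 rose and 5 fell on the quantile scale, but rank scores called 1 higher and 1 lower, slide as a random block 1 higher and 2 lower, and the measured-gene scale 2 higher and 2 lower of 4. Its antiviral member Bst2 had 4.59, 5.46 and 5.08 at E12.5, against 7.40, 9.29 and 5.12 at E11.5 (-2.23 ± 0.56), with groups that overlap. TCA cycle genes had 8 of 19 lower and 2 higher, and glycolysis genes 8 of 21 lower and 6 higher. Among the 4404 probes without a single symbol, 1031 were higher and 958 lower.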
